A study of Homo sapiens with 30 samples.

Results

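The 49 genes described here are a set of 24 DNA replication genes and 25 mitosis genes, out of 26475 genes in each count table. They were chosen by gene symbol and not by their values, but with earlier results of these data known. All 49 were present in both tables and passed the filter on low counts in both. Bulk mRNA was sequenced from lineages of the line MDA-MB-231, which was established from a human breast cancer and has mesenchymal traits. The labels describe each lineage as wild type and distinct. The series title names cooperation of clones through exchanged soluble metabolites as its subject. Lineages 22, 35 and 45 make up 18 of the libraries, counted in a first table, in 2 conditions each. In isolation the lineage grew alone for about 24 h, and RNA was taken with TRIzol from the adherent cells and cleaned on an RNeasy column. From co-culture it was recovered by cell sorting after 15 days in a mixture of 6 members that passed through a bottleneck every 3 days, and RNA was taken with RNeasy Plus columns alone. The other 12 libraries, counted in a second table, are lineages 03, 10 and 13 and Pop, a name the sources used here do not explain, all from isolation. All 10 groups have 3 libraries and shared RPMI-1640 medium with 10% dialyzed fetal bovine serum and 2 mM glutamine. The labels do not say that replicates came from separate cultures, so p-values measure the spread between these libraries, which may be technical. Time in culture, the presence of other lineages, sorting and the RNA kit change together between isolation and co-culture and cannot be told apart.

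Cells copy their DNA in S phase and separate the copies in mitosis. Before S phase the MCM2 to MCM7 helicase ring is loaded on replication origins by CDC6 and CDT1, and it is switched on when CDC45 and the GINS complex join it. Transcription of these genes is driven by the E2F family around the start of S phase. Genes needed later, such as cyclin B, the Aurora and Polo kinases and the mitotic kinesins, are transcribed mostly in G2 and mitosis, through promoter elements called CHR (cell cycle genes homology region) and CCAAT boxes, bound by the DREAM and B-MYB/FOXM1 complexes and by NF-Y. In a bulk library, a larger share of cells in one phase and more transcript in each such cell cannot be told apart.

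Promoter sequences show this division of the set. RefSeq promoters (GRCh38.p14) were at hand for 21 of the 24 replication genes and 21 of the 25 mitosis genes. MCM4, MCM5, CCNE2, AURKA, BIRC5, TPX2 and UBE2C had none. The 250 bases before each start were searched on both strands for 4 E2F letter strings (TTTCCCGC, TTTCGCGC, TTTGGCGC and TTTGCCGC), for the CHR core TTTGAA and for CCAAT. An E2F string was found before 10 of 21 replication genes (47.6%) and 2 of 21 mitosis genes (9.52%), against 3.40% of all 27305 genes with a promoter and 5.37% of the 10946 of them that were tested in either table. A CHR core was found before 12 of 21 mitosis genes (57.1%) and 1 of 21 replication genes (4.76%), against 16.1% of all genes and 12.1% of tested genes. CCAAT was common in both, in 14 of 21 replication genes (66.7%) and 19 of 21 mitosis genes (90.5%), against 37.0% of all genes. CHR and CCAAT stood together before 11 of 21 mitosis genes (52.4%) and 1 of 21 replication genes, against 5.79% of all genes. A match of letters is a description of the sequence and does not show binding.

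The 120 bases before the start of 3 replication genes and 3 mitosis genes are given 5′ to 3′ on the strand of the gene, with the motif letters in capitals, to show how the elements are spaced. MCM6 (chr2:135876444-135876563, minus strand) holds 2 overlapping E2F strings whose first bases are 90 and 86 bases before the start, between 2 reversed CCAAT boxes. PCNA (chr20:5126623-5126742, minus strand), the sliding clamp, has 1 E2F string 59 bases before the start. E2F1 (chr20:33686386-33686505, minus strand) has 2 E2F strings at 33 and 20 bases.
MCM6: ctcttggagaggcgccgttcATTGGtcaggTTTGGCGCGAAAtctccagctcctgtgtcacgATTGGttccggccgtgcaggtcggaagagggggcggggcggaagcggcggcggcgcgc
PCNA: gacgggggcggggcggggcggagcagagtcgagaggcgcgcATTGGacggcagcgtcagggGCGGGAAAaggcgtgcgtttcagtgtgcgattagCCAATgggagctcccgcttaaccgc
E2F1: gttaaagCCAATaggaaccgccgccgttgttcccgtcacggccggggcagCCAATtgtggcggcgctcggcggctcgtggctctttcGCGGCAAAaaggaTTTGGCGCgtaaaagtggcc
CDC20 (chr1:43358861-43358980, plus strand), the activator of the anaphase-promoting complex, has a CHR core 65 bases before the start between CCAAT boxes at 100 and 55 bases. MKI67 (chr10:128126424-128126543, minus strand), which encodes the Ki-67 antigen, has 2 CHR cores at 47 and 29 bases, the second of which shares a base with a reversed CCAAT box. KIF11 (chr10:92593010-92593129, plus strand), the kinesin that pushes spindle poles apart, has a reversed CHR core at 28 bases.
CDC20: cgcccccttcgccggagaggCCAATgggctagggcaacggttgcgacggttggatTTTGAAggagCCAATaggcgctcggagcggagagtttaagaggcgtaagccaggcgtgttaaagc
MKI67: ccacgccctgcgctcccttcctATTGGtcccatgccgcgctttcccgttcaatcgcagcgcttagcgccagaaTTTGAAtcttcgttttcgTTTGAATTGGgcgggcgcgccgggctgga
KIF11: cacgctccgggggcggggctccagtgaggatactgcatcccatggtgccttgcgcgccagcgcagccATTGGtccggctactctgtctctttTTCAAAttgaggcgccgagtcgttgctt
In capitals, the 3 replication promoters above show E2F strings and CCAAT boxes and no CHR core. The 3 mitosis promoters show CHR cores and CCAAT boxes and no E2F string. These are examples that hold the motifs, and they do not stand for every member. Within the same 120 bases MCM2, CDC6 and FEN1 held no E2F string, and CCNA2, CCNB1 and CENPE no CHR core. In the longer search described above, E2F strings stood before 10 of 21 replication genes and CHR cores before 12 of 21 mitosis genes.

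Libraries held 29817903 to 38843676 counts in the first table and 28088449 to 35356195 in the second. Tests ran in edgeR over 14570 and 14638 genes, each table on its own, and a gene was called where the Benjamini-Hochberg (BH) adjusted p over all tested genes was under 0.05. CPM below is counts scaled to library size with TMM factors, changes are log2 fold changes ± SE from edgeR, and no level is compared across the tables. Members are mostly named for large called changes, so a lack of overlap between their libraries goes with that choice and is no further test. VIM, CD44, EGFR, AXL and ZEB1, which MDA-MB-231 cells express, summed to 5074 to 9819 CPM per library, against 0.139 to 12.2 CPM for 6 endothelial and erythroid markers. Of the leukocyte markers, CD68 stood at 34.5 to 162 CPM in the first table, and CD3E and MS4A1 were at 0 or near it in all libraries. Some chromosomes moved as a whole between co-culture and isolation. The median change of 437 tested chromosome 15 genes was -0.53 in lineage 35, and -0.06 and -0.02 in lineages 22 and 45. Also in lineage 35, chromosomes 18, 6 and 21 had medians of -0.59, -0.49 and -0.32, and chromosomes 12 and 14 of 0.40 and 0.31. In lineage 22 the X chromosome stood at -0.84 and chromosome 4 at -0.36, and in 45 chromosome 7 at -0.31. Whether the co-culture libraries labelled 35 hold the same cells as isolated 35 was not tested. Genes induced by cell dissociation (8 listed) summed to 226 to 346 CPM in the isolated libraries of the first table and 383 to 563 CPM in those from co-culture, and their part in the results was not tested. Replicate 1 of Pop stood apart: its chi-square per gene against the other Pop libraries was 53.7 and 73.7, against 5.09 to 45.4 for every other pair of replicates. Counts against Pop are therefore given with and without it.

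For an overview, the level of a list in a library is the mean over its genes of log2 CPM, centred on each gene's mean over the table. Isolated lineage 22 had the lowest replication level of the first table, at -0.285, -0.260 and -0.399 in its 3 libraries, and the same lineage from co-culture stood at 0.0686, 0.0889 and 0.147. The ranges of the 2 conditions did not overlap. Its mitosis level was -0.223, -0.0927 and -0.189 in isolation and 0.0311, 0.0703 and 0.0467 from co-culture, again without overlap. In lineage 35 the replication level was 0.208, 0.0324 and 0.0549 in isolation and 0.184, 0.127 and 0.111 from co-culture, which overlap, while the mitosis level was 0.122, 0.112 and 0.185 and -0.0398, 0.0692 and 0.027, lower from co-culture without overlap. That lower mean does not describe most mitosis genes, whose median change in lineage 35 was 0.05. All mitosis members on chromosome 15, described below, fell. In lineage 45 the replication level was 0.00176, -0.088 and -0.0764 in isolation and 0.0001, 0.0804 and 0.00338 from co-culture, and the mitosis level -0.0149, -0.00535 and -0.0648 and 0.00144, 0.0347 and -0.0695. Both overlapped between the conditions. In the second table, lineage 13 had replication levels of 0.266, 0.185 and 0.226 beside mitosis levels of -0.130, -0.0632 and 0.00183, so its replication level lay above its mitosis level in each library. Lineage 10 stood at -0.142, -0.172 and -0.102 for replication and -0.0406, -0.0716 and 0.0615 for mitosis. The mitosis level spread widely within lineage 03 (-0.267, -0.0351 and 0.131) and Pop (0.361, 0.063 and -0.0108), where replicate 1 of Pop lay above the others in both lists. The replication levels of 03 and Pop were -0.0868, -0.167 and -0.316 and 0.243, 0.0546 and 0.0114. These levels carry no test.

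**Figure D1:**
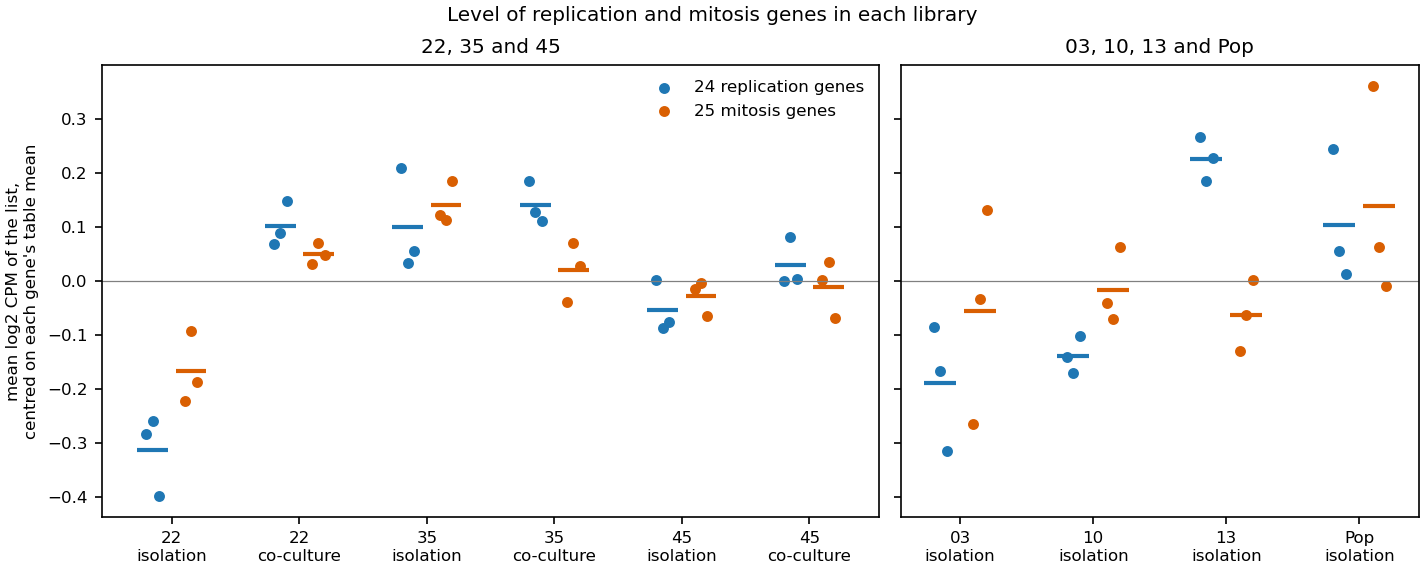
Mean level of the 24 replication genes (blue) and 25 mitosis genes (orange) in each library, as log2 CPM centred on each gene's mean over the libraries of its table; points are libraries and bars are means of 3, and the panels are separate tables. Isolated lineage 22 is the lowest replication group of the first table, between -0.399 and -0.260, and lineage 13 pairs the highest group mean for replication in the second table with mitosis levels near or below 0.

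In lineage 22 both lists were higher from co-culture, the replication genes by more. Of 24 replication genes 18 rose and 1 fell, with a median log2 change of 0.54, and of 25 mitosis genes 14 rose and 1 fell, with a median of 0.21. Over all tested genes 27% were called higher and 30% lower, with a median change of -0.04. Among the members, 9 replication genes and 2 mitosis genes rose by more than 1.5-fold. The 27% holds for called rises of any size, so these 1.5-fold counts have no share of all genes beside them. Fitted with the 22 libraries alone, 18 replication genes and 13 mitosis genes rose and 1 of each list fell. Leaving out each library in turn kept both counts of rises, and that of the fallen replication gene, within 1.5 times. The single mitosis gene that fell, CENPE, was lost without the second isolated library, the second co-culture library or the third co-culture library of lineage 22, with an adjusted p of up to 0.0883.

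The helicase and the factors that load and start it rose together in lineage 22. Of the 6 helicase subunits MCM2 to MCM7, 5 rose, by 0.53 to 0.74, and MCM4 did not pass (0.03 ± 0.07, adjusted p = 0.759). All 5 licensing and firing factors rose. CDT1 (chr16:88803789-88809258), which brings the helicase to the origin, measured 45.0, 41.5 and 38.0 CPM in isolation and 78.3, 83.2 and 67.0 CPM from co-culture, a change of 0.88 ± 0.11, adjusted p = 2.26e-06. GINS2 (chr16:85676198-85688954), a subunit of the GINS complex, went from 22.1, 24.0 and 21.6 CPM to 35.2, 36.0 and 39.5 CPM, a change of 0.71 ± 0.10, adjusted p = 6.97e-06. In both genes each co-culture library was above each isolated one. CDC6, CDC45 and MCM10 rose by 0.55, 0.58 and 0.59.

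All 4 genes of nucleotide supply rose in lineage 22. The thymidine kinase TK1 (chr17:78174079-78187204), which salvages thymidine, measured 139.6, 148 and 137 CPM in isolation and 273, 271 and 269 CPM from co-culture. This was the largest change of the replication list in lineage 22, 1.91-fold (0.94 ± 0.09, adjusted p = 4.25e-08). Thymidylate synthase, TYMS (chr18:657653-673578), measured 167, 173 and 149.7 CPM and 284, 286 and 256 CPM, a change of 0.75 ± 0.08, adjusted p = 2.00e-07. TYMS overlaps the antisense gene ENOSF1, and whether the counting used strand is not given in the sources used here, so its counts may hold reads of both. The ribonucleotide reductase subunits RRM1 and RRM2 rose by 0.48 and 0.28.

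At the fork the picture in lineage 22 was mixed. FEN1 (chr11:61792911-61797238), the nuclease that trims Okazaki fragments, rose from 207, 211 and 189 CPM to 286, 305 and 361 CPM (0.65 ± 0.10, adjusted p = 1.51e-05). The clamp gene PCNA, with the E2F string printed above, rose by 0.39. POLA1 (chrX:24693918-24996986), the catalytic subunit of the priming polymerase, was the only replication gene called lower: it measured 79.3, 80.0 and 77.3 CPM in isolation and 53.3, 52.0 and 58.1 CPM from co-culture, without overlap (-0.53 ± 0.09, adjusted p = 3.26e-05). The 50 tested genes nearest POLA1 on the X chromosome had a median change of -1.05 in the same comparison. The clamp loader subunit RFC4 and the S phase cyclins CCNE1 and CCNE2 did not pass, with changes of 0.13, -0.17 and -0.13, while the transcription factor gene E2F1 rose by 0.24 (adjusted p = 0.0263). UHRF1, which reads hemimethylated DNA, rose by 0.36, and the histone mRNA binding protein gene SLBP did not pass (0.12).

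Among mitosis genes in lineage 22, the 3 regulators of anaphase, CDC20, UBE2C and PTTG1, were all called higher, by 0.19 (UBE2C) to 0.75 (CDC20). CDC20 (chr1:43358981-43363203) measured 169, 196 and 174 CPM in isolation and 290.2, 330.3 and 286 CPM from co-culture (0.75 ± 0.09, adjusted p = 9.07e-07). AURKB (chr17:8204731-8210575), the kinase of the chromosomal passenger complex, measured 66.0, 66.5 and 59.0 CPM and 103, 101 and 100.4 CPM (0.67 ± 0.08, adjusted p = 1.29e-06). Both rose without overlap of the libraries. PTTG1, which encodes securin, rose by 0.55, but it has near-identical copies, PTTG2 and PTTG3P, with which reads may be shared. Of CDK1 and its activators, CCNB1, CCNB2 and CDC25C rose by 0.33, 0.30 and 0.50, and CCNA2 (-0.01) and CDK1 itself (-0.04) did not pass. PLK1, AURKA, the spindle genes TPX2, KIF20A, PRC1 and NUSAP1, and BIRC5 (survivin) rose by 0.21 to 0.53. CENPE (chr4:103105811-103198343), a large kinesin of the kinetochore, fell: 175, 189 and 183 CPM in isolation and 132, 106 and 93.5 CPM from co-culture (-0.72 ± 0.24, adjusted p = 0.0205). Its 50 chromosome 4 neighbours had a median change of -0.38. The remaining mitosis genes, BUB1, BUB1B, TOP2A, MKI67, CENPF, KIF11, KIF23 and HMMR, did not pass and lay between -0.13 and 0.15.

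Genes of the same pathways outside the set were counted for comparison. In lineage 22 from co-culture, of 26 other replication fork genes 14 rose and 3 fell, of 20 other licensing and firing genes 5 rose and 2 fell, and of 47 other mitosis genes 22 rose and 4 fell. RPA1, a subunit of the single-strand binding protein, changed by 0.69 ± 0.08, adjusted p = 4.85e-07. The clamp loader gene RFC2 changed by 0.66 ± 0.08, adjusted p = 8.46e-07, and the licensing inhibitor gene GMNN (geminin) by 0.63 ± 0.10, adjusted p = 1.57e-05. MYBL2, which encodes B-MYB and is one of 19 listed regulators of cell cycle transcription, changed by 0.80 ± 0.11, adjusted p = 6.77e-06, against -0.79 ± 0.11, adjusted p = 9.97e-06 for RBL2, the p130 subunit of DREAM. Of those 19 regulators 6 rose and 4 fell, and of 15 tested genes of G1 cyclins, kinases and inhibitors 9 rose and 2 fell. Over all tested genes 27% were called higher and 30% lower. The rises among the regulators and the other licensing and firing genes were near that share. Genes named in this paragraph were picked by smallest p.

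**Figure D2:**
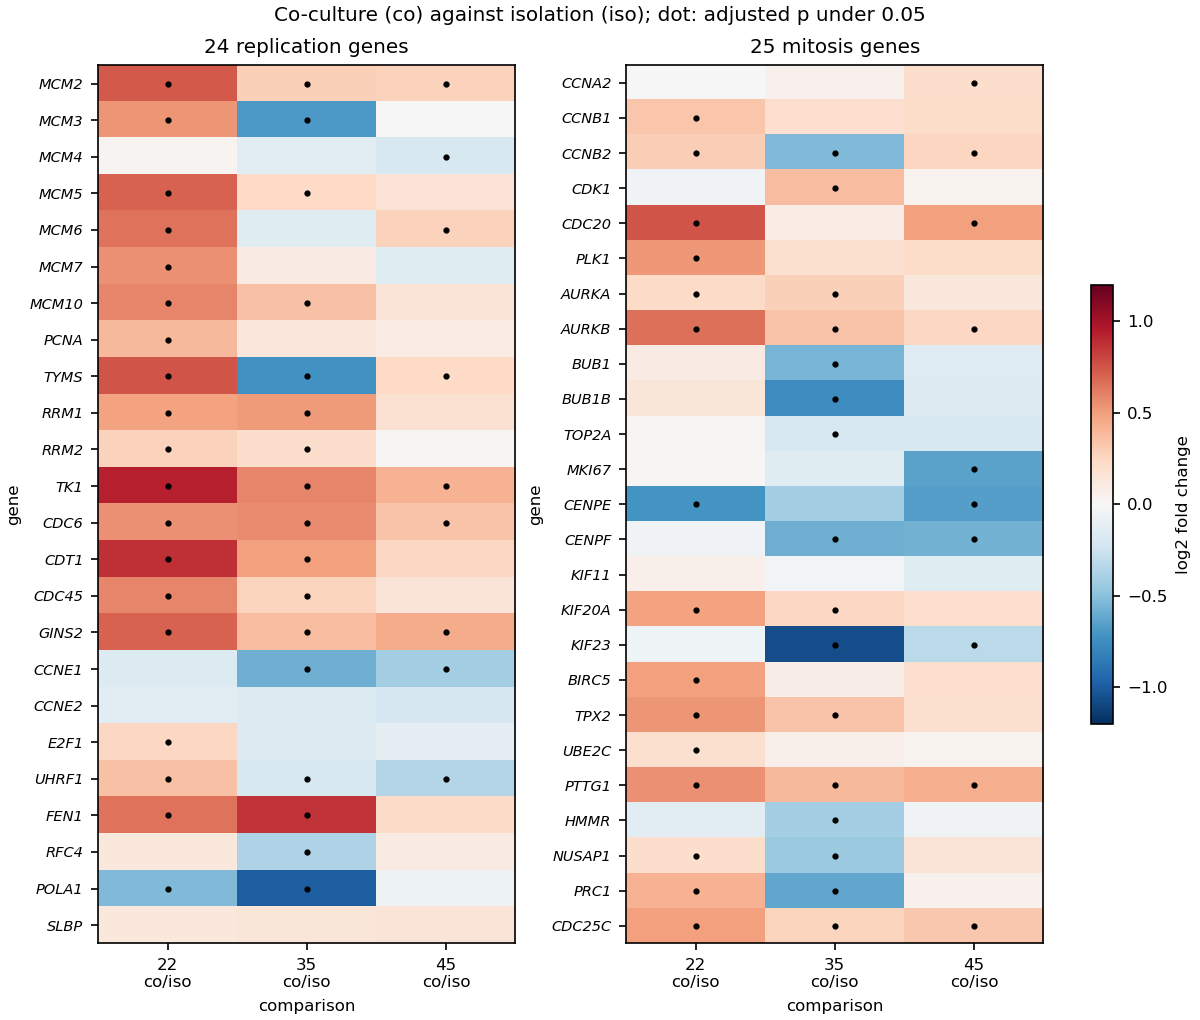
Log2 fold change of each gene between co-culture and isolation in lineages 22, 35 and 45 (columns), for 24 replication genes (left) and 25 mitosis genes (right), with a dot where the adjusted p was under 0.05. The 22 column is almost all red for replication, with POLA1 the only called fall at -0.53, while the 35 column mixes rises such as FEN1 (0.87) with falls such as KIF23 (-1.07).

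In lineage 35 the set split between genes that rose and genes that fell. Of 24 replication genes 11 rose and 6 fell (median 0.14), and of 25 mitosis genes 7 rose and 9 fell (median 0.05), where 32.7% of all genes were called higher and 32.9% lower. The rises of the replication genes (11 of 24) exceeded the background share, and the other counts were near it. The 5 licensing and firing factors again all rose, by 0.27 (CDC45) to 0.57 (CDC6). TK1 measured 147, 138 and 159 CPM in isolation and 254, 210.2 and 205 CPM from co-culture, a rise of 0.59 ± 0.09, adjusted p = 5.18e-06. FEN1 had the largest rise of the set, from 155, 128 and 144 CPM to 282, 250.1 and 248 CPM (0.87 ± 0.10, adjusted p = 1.92e-07), and its 50 chromosome 11 neighbours had a median change of 0.49. MCM2, MCM5, RRM1 and RRM2 rose by 0.21 to 0.51.

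The replication genes that fell in lineage 35 come from several roles. POLA1 fell from 132, 121 and 104 CPM to 57.8, 62.7 and 59.4 CPM (-0.99 ± 0.09, adjusted p = 4.28e-09). TYMS, which rose in lineage 22, measured 492, 441 and 463 CPM in isolation and 298, 275 and 272 CPM from co-culture in lineage 35, a fall (-0.72 ± 0.08, adjusted p = 9.23e-08). The helicase subunit gene MCM3 (chr6:52264015-52284742) fell likewise, from 631, 578 and 612 CPM to 389, 372 and 366 CPM (-0.69 ± 0.08, adjusted p = 3.36e-07). None of the 3 genes had overlapping libraries. CCNE1, RFC4 and UHRF1 fell by 0.58, 0.37 and 0.19 on the log2 scale.

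The mitosis genes that fell in lineage 35 were led by genes of chromosome 15. All 5 members on that chromosome fell: KIF23, PRC1 and NUSAP1 of the spindle, the checkpoint kinase gene BUB1B and the cyclin gene CCNB2. KIF23 (chr15:69414349-69448427), a kinesin of the central spindle and cytokinesis, measured 366, 333 and 317 CPM in isolation and 154, 173 and 159 CPM from co-culture (-1.07 ± 0.07, adjusted p = 9.99e-11). BUB1B (chr15:40161069-40221123) went from 182, 181 and 180.3 CPM to 98.5, 116 and 107 CPM (-0.76 ± 0.08, adjusted p = 1.36e-07). PRC1 (chr15:90966040-90994535), which bundles midzone microtubules, went from 380.0, 367 and 392 CPM to 247, 258 and 234 CPM (-0.62 ± 0.08, adjusted p = 2.05e-06). In all 3 the isolated libraries stood above every co-culture library. The 50 neighbours of these 5 genes had median changes of -0.59 to -0.41. BUB1, CENPF, HMMR and TOP2A also fell, and CENPE did not pass (-0.41 ± 0.24). AURKB rose from 81.0, 73.6 and 83.9 CPM to 105, 103 and 94.3 CPM (0.34 ± 0.08, adjusted p = 0.00103), TPX2 from 485, 465 and 491 CPM to 637, 610.2 and 575 CPM (0.34 ± 0.08, adjusted p = 0.00142) and PTTG1 from 131, 146 and 169 CPM to 211, 197 and 178 CPM (0.39 ± 0.09, adjusted p = 7.46e-04), and CDK1, AURKA, CDC25C and KIF20A rose by 0.25 to 0.37. Among the other pathway genes, 10 of 26 fork genes rose and 8 fell, and 4 of 20 licensing genes rose and 8 fell. Of 47 other mitosis genes 21 rose and 10 fell, where 32.7% of all genes were called higher and 32.9% lower. POLE, the leading strand polymerase gene, changed by -1.39 ± 0.11, adjusted p = 5.74e-10, and NDC80, a kinetochore gene, by -0.69 ± 0.07, adjusted p = 4.51e-08.

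Lineage 45 had the fewest called members. Of 24 replication genes 6 rose and 3 fell (median 0.15), and of 25 mitosis genes 6 rose and 4 fell (median 0.14). Over all genes 18.6% were called higher and 23.2% lower, so in this fit the shares that rose were near the background. These counts depend on the scaling. With RLE size factors 11 genes of each list rose, where 21.8% of all genes did. With DESeq2 likewise 11 of each rose, where 20.5% of all genes did. Over both lists 63.2% of called members were higher in the main analysis, 81.5% with RLE and 78.6% with DESeq2. Among all called genes these shares were 44.5%, 51.1% and 52.0%. Without the third isolated 45 library 2 mitosis genes rose in place of 6, and without the second isolated 22 library 2 fell in place of 4. GINS2 measured 27.3, 24.1 and 23.3 CPM in isolation and 36.1, 33.4 and 32.3 CPM from co-culture (0.45 ± 0.10, adjusted p = 0.0013), and TK1 166, 146 and 141 CPM and 193, 208 and 202 CPM (0.42 ± 0.09, adjusted p = 6.66e-04), both without overlap. MCM2, MCM6, CDC6 and TYMS rose by 0.24 to 0.35. CDC20 rose from 239, 209.7 and 213 CPM to 289, 326 and 319 CPM (0.50 ± 0.09, adjusted p = 1.83e-04), and CCNA2, CCNB2, CDC25C and PTTG1 by 0.21 to 0.43.

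Several genes fell in lineage 45. CCNE1 (chr19:29811991-29824312), the cyclin of the G1 to S transition, fell from 22.0, 23.4 and 23.0 CPM to 16.8, 18.5 and 16.3 CPM (-0.41 ± 0.09, adjusted p = 0.00122). UHRF1 fell from 286, 287 and 284 CPM to 195, 228 and 249.6 CPM (-0.35 ± 0.08, adjusted p = 0.00143). Neither gene overlapped between conditions. MCM4 was called lower, with 250.3, 243 and 239 CPM in isolation and 205, 211 and 225 CPM from co-culture (-0.19 ± 0.07, adjusted p = 0.0456), but the call was lost in 12 of 18 fits that left out a library and in 5 of the 6 other alternatives. KIF23 fell from 196, 184 and 184 CPM to 149, 158 and 144 CPM (-0.33 ± 0.07, adjusted p = 0.0013). Of 47 other mitosis genes 4 rose and 6 fell, and of 26 other fork genes 7 rose and 6 fell. Over all genes 18.6% were called higher and 23.2% lower.

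The remaining mitosis genes that fell in lineage 45 are those with the longest transcripts. CENPE, CENPF and MKI67 are the only members whose longest coding transcript in GENCODE exceeds 6000 nt, a limit chosen after their values were seen (8612, 10307 and 12678 nt). Of all 2405 tested genes over that limit, 798 were called lower and 232 higher in lineage 45. Their median change was -0.17, against 0.03 for the genes not over it. The fall of long genes was not particular to lineage 45. In lineage 22, 978 were called lower and 361 higher (median -0.21, against 0.04). In lineage 35, 839 were lower and 739 higher (median -0.05, against 0.05). Of the 3 long members, 1 was called lower in 22 (CENPE) and 1 in 35 (CENPF). In lineage 45 CENPE measured 182, 229 and 217 CPM in isolation and 143, 127 and 126 CPM from co-culture (-0.66 ± 0.24, adjusted p = 0.0398). MKI67, the proliferation marker, measured 1087, 1041 and 960.3 CPM and 510.3, 611 and 863 CPM (-0.64 ± 0.23, adjusted p = 0.0397), and CENPF 626, 654 and 583 CPM and 346, 454 and 458 CPM (-0.57 ± 0.16, adjusted p = 0.00809). No co-culture library reached an isolated one in these 3 genes. The call of CENPE was lost in 10 of 18 fits without 1 library and that of MKI67 in 6. Over the 24 replication genes the change correlated with log2 transcript length at r = -0.16 in lineage 45, -0.16 in 22 and -0.02 in 35, and over the 25 mitosis genes at r = -0.83 in lineage 45, -0.59 in 22 and -0.50 in 35, against -0.11, -0.14 and 0.00 over 12848 genes. These genes share libraries, and the r of the mitosis genes includes the 3 long ones, so r describes the list. The nuclear-retained RNAs MALAT1 and NEAT1 fell in each of the co-culture comparisons, with log2 changes of -3.28 and -3.24 in lineage 22, -3.40 and -3.15 in 35, and -2.47 and -2.16 in 45, so their levels moved with the same contrast. What set them was not measured, and its part in the changes of the members was not tested.

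**Figure D3:**
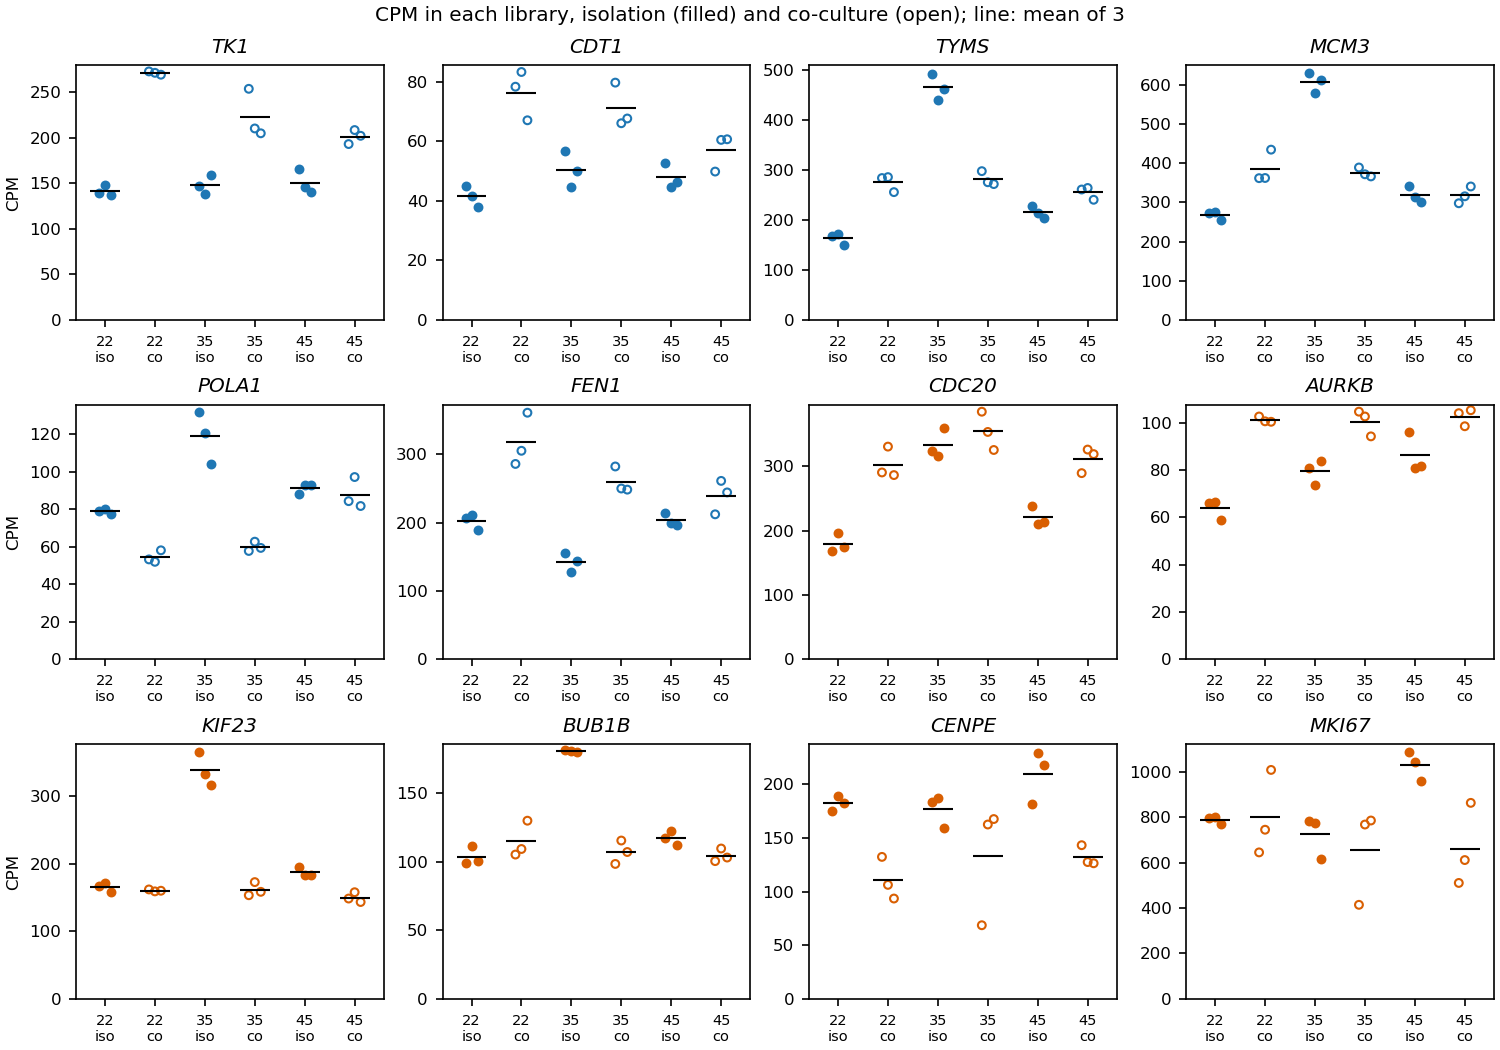
CPM of 6 replication genes (blue) and 6 mitosis genes (orange) in each of the 18 libraries of the first table, with isolation as filled and co-culture as open points and a line at the mean of 3. TK1 and AURKB are higher from co-culture in all 3 lineages, TYMS, MCM3, KIF23 and BUB1B stand out in isolated lineage 35, and the open points of CENPE and MKI67 spread widely.

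Members that moved the same way in each lineage were then counted. MCM2, CDC6, TK1 and GINS2 of the replication genes and AURKB, PTTG1 and CDC25C of the mitosis genes were called higher from co-culture in lineages 22, 35 and 45. These are 7 of 49 members, where 7.77% of all tested genes were higher in all 3. No member was called lower in all 3, by edgeR, by DESeq2 or at an unadjusted p under 0.05, against 10.6% of all genes. The count of members higher in all 3 depends on the scaling, with 12 by RLE size factors and 13 by DESeq2. The libraries overlapped for MCM2 in lineage 45 and CDC25C in lineage 35. SLBP, CCNE2 and KIF11 were called in none of the 3, and CCNE2 and KIF11 in none of the 18 comparisons made here. AURKB in lineage 45 measured 96.3, 81.1 and 81.6 CPM in isolation and 104, 98.5 and 105 CPM from co-culture (0.25 ± 0.08, adjusted p = 0.0172). Isolated 22, 35 and 45 each serve in 1 of these comparisons only, so the 3 share no library, although they share 1 estimate of the spread.

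Whether the change differed between lineages was tested by interaction. Larger and smaller refer here to the signed log2 change, so a deeper fall counts as a smaller change. KIF23, for example, changed by -1.07 in 35 and -0.33 in 45, and so counts as smaller in 35. The change of lineage 22 exceeded that of 35 in 14 replication genes and fell below it in none. Among mitosis genes it was larger in 11 and smaller in 1. Of all genes, 24.2% were called larger in 22 and 25.4% smaller, 49.6% in either direction. In either direction both lists were near the share of all genes, and most called members had the larger change in 22. The widest difference was in TYMS (1.48 ± 0.11, adjusted p = 9.75e-10), followed by MCM3 (1.22 ± 0.12, adjusted p = 2.90e-08) and MCM6 (0.79 ± 0.11, adjusted p = 7.91e-06). No replication gene went the other way at an unadjusted p under 0.05 either. PRC1 (1.04 ± 0.12, adjusted p = 4.27e-07), KIF23 (1.02 ± 0.10, adjusted p = 6.54e-08) and BUB1B (0.90 ± 0.12, adjusted p = 2.49e-06) led the mitosis genes, and CDK1 was the gene with the smaller change in 22 (-0.41 ± 0.16, adjusted p = 0.0334), a call lost in 6 of 18 fits without 1 library. Against lineage 45, the change of 22 was larger in 12 replication genes and smaller in 1, POLA1 (-0.48 ± 0.12, adjusted p = 0.00954). Here 9.25% of all genes were called larger in 22 and 8.08% smaller, 17.3% in either direction. UHRF1 (0.71 ± 0.11, adjusted p = 2.29e-04), MCM7 (0.70 ± 0.12, adjusted p = 5.76e-04) and CDT1 (0.62 ± 0.16, adjusted p = 0.00909) led. Only 2 of 25 mitosis genes differed between 22 and 45, AURKB (0.42 ± 0.11) and PRC1 (0.36 ± 0.12), and both were larger in 22. Without the third isolated 22 library the counts against 45 were 8 replication genes and 0 mitosis genes. Between lineages 35 and 45, the change of 35 was larger in 2 replication genes and smaller in 5, and smaller in 7 mitosis genes. Here 22.8% of all genes were called larger in 35 and 19.5% smaller, 42.3% in either direction. In either direction the share of called members lay below the background in both lists. The mitosis genes with the smaller change (7 of 25) exceeded the 19.5%. TYMS (-0.97 ± 0.11, adjusted p = 5.13e-07), POLA1 (-0.93 ± 0.12, adjusted p = 2.93e-06) and MCM3 (-0.69 ± 0.12, adjusted p = 6.01e-05) had the smaller changes in 35, and FEN1 (0.63 ± 0.14, adjusted p = 8.82e-04) and RRM1 (0.32 ± 0.11, adjusted p = 0.027) the larger. All 5 chromosome 15 members were among the 7 mitosis genes, led by CCNB2 (-0.79 ± 0.12, adjusted p = 2.94e-05), KIF23 (-0.74 ± 0.10, adjusted p = 5.76e-06) and PRC1 (-0.68 ± 0.12, adjusted p = 1.00e-04).

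The isolated lineages were then compared with each other. Lineage 22 had less of most members than lineage 35: 18 of 24 replication genes were lower and 1 higher (median -0.29), and 11 of 25 mitosis genes were lower and 1 higher (median -0.19), against 31.4% of all genes lower and 32.2% higher. All 6 helicase subunits were lower in 22. TYMS measured 167, 173 and 149.7 CPM in isolated 22 and 492, 441 and 463 CPM in isolated 35 (-1.51 ± 0.08, adjusted p = 1.75e-12), the widest difference of the set. MCM3 stood at 272, 276 and 254 CPM and 631, 578 and 612 CPM (-1.18 ± 0.08, adjusted p = 1.33e-10), and CCNE1 at 11.0, 11.1 and 9.97 CPM and 22.0, 18.3 and 20.6 CPM (-0.92 ± 0.09, adjusted p = 3.05e-08). FEN1 was the replication gene higher in 22 (0.50 ± 0.10, adjusted p = 1.49e-04). KIF23 (-1.03 ± 0.07, adjusted p = 1.57e-10), CDC20 (-0.89 ± 0.09, adjusted p = 2.92e-08) and BUB1B (-0.80 ± 0.08, adjusted p = 5.80e-08) led the mitosis genes, and CDK1 was higher in 22 (0.31 ± 0.11, adjusted p = 0.0191), a call lost without the second isolated library of 22 or of 35.

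Against isolated lineage 45, lineage 22 had 9 replication genes lower and none higher (median -0.21), with 19.8% of all genes lower and 18.6% higher. At an unadjusted p under 0.05 the higher ones were also 0, and DESeq2 called 0. CCNE1 measured 11.0, 11.1 and 9.97 CPM in 22 and 22.0, 23.4 and 23.0 CPM in 45 (-1.09 ± 0.09, adjusted p = 1.30e-08). UHRF1 measured 163, 179 and 172 CPM in 22 and 286, 287 and 284 CPM in 45 (-0.74 ± 0.08, adjusted p = 3.21e-07), and MCM7 (chr7:100092728-100101397) 269, 273 and 246 CPM and 494, 416 and 403 CPM (-0.74 ± 0.09, adjusted p = 1.14e-06). No libraries of 22 and 45 overlapped for these 3. Of mitosis genes 4 were lower, a share near the background with all groups fitted, and 1 was higher. With only these 2 groups fitted 10 of 25 were lower, where 24.1% of all genes were. With all groups, AURKB (-0.44 ± 0.08) and CDC20 (-0.30 ± 0.09) were among the lower and CCNA2 (0.37 ± 0.08), the cyclin of S and G2 phase, was the higher. Without the third isolated 22 library 5 replication genes were lower, and without the first 1 mitosis gene was.

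Lineage 35 exceeded lineage 45 in isolation for 7 replication genes and 9 mitosis genes, and 1 replication gene, FEN1 (-0.51 ± 0.10, adjusted p = 1.67e-04), was lower, against 24.3% of all genes higher and 27.6% lower. The count of higher replication genes (7 of 24) was near the background share. TYMS (1.11 ± 0.08, adjusted p = 2.53e-10), MCM3 (0.93 ± 0.08, adjusted p = 7.07e-09) and MCM6 (0.75 ± 0.08, adjusted p = 1.23e-07) led the replication genes. KIF23 (0.85 ± 0.07, adjusted p = 4.09e-09) and CCNB2 (0.71 ± 0.09, adjusted p = 7.96e-07) led the mitosis genes, before CCNA2 (0.67 ± 0.08, adjusted p = 7.50e-07). No mitosis gene was lower by edgeR with all groups fitted, or by DESeq2, and 2, CDK1 and MKI67, were at an unadjusted p under 0.05. In other edgeR fits 1 was called lower with the stricter filter on low counts, 1 with the replicate number as a block and 2 with only the groups compared. Without the first isolated 35 library 4 replication genes were higher. MCM6 measured 195, 174 and 167 CPM in 35 and 113, 104 and 100.1 CPM in 45. Of the 9 mitosis genes higher in 35, 5 were the chromosome 15 members again, and they share libraries with the comparison of 22 and 35 above.

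The lineages from co-culture differed in fewer members than the isolated ones, and fewer of all tested genes were called as well. Lineages 22 and 35 differed in 6 of 24 replication genes (2 higher in 22, 4 lower) and 3 of 25 mitosis genes (2 higher, 1 lower), against 15.6% of all genes higher and 15.5% lower. The 4 lower replication genes were near that share and the other counts below it. In isolation 32.2% of all genes were higher in 22 than 35 and 31.4% lower. With RLE size factors 5 members were higher and 4 lower. The genes that separated isolated 22 and 35 most did not pass here, with TYMS at -0.03 ± 0.08, MCM3 at 0.04 ± 0.08, KIF23 at -0.01 ± 0.07 and BUB1B at 0.10 ± 0.08. The interaction above is the test of that difference. CCNE1 (-0.51 ± 0.09, adjusted p = 3.51e-04), UHRF1 (-0.35 ± 0.08, adjusted p = 0.0018) and MCM7 (-0.34 ± 0.09, adjusted p = 0.00517) were lower in 22, while FEN1 (0.29 ± 0.10) and TK1 (0.28 ± 0.09) were higher, calls that both failed without the second or the third 35 co-culture library. Among mitosis genes CCNA2 was lower (-0.36 ± 0.08, adjusted p = 0.00231), and PRC1 (0.34 ± 0.08, adjusted p = 0.00429) and CDC25C (0.26 ± 0.10, adjusted p = 0.0455) were higher, the last a call lost in 10 of 18 fits without 1 library. Lineages 22 and 45 from co-culture differed in 8 replication genes higher in 22 and 2 lower, with 13.2% and 12% of all genes called, and of mitosis genes PRC1 alone was called (0.28 ± 0.08, adjusted p = 0.0196). MCM5 (0.44 ± 0.08, adjusted p = 2.35e-04) had the largest positive difference. CCNE1 measured 8.98, 10.1 and 9.56 CPM in 22 and 16.8, 18.5 and 16.3 CPM in 45 (-0.85 ± 0.09, adjusted p = 1.63e-06), and POLA1 53.3, 52.0 and 58.1 CPM and 84.3, 97.2 and 81.7 CPM (-0.69 ± 0.09, adjusted p = 8.11e-06). With only these 2 groups fitted 3 replication genes were higher, and without the third 22 co-culture library 4. Between 35 and 45 from co-culture, 5 replication genes were higher in 35 and 2 lower, against 6.42% and 6.28% of all genes, and without the first 35 co-culture library 1 was higher. No mitosis gene was lower in either comparison with 45, at an unadjusted p under 0.05 or by DESeq2. POLA1 (-0.55 ± 0.09, adjusted p = 1.56e-04), CCNE1 (-0.34 ± 0.09, adjusted p = 0.0145) and MCM6 (0.33 ± 0.08, adjusted p = 0.00828) led, and CCNA2 was the only mitosis gene called (0.51 ± 0.08, adjusted p = 1.91e-04).

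In the second table, more replication genes were lower than higher against Pop in lineages 03 and 10, and more were higher than lower in lineage 13. Lineage 03 had 11 of 24 replication genes lower and 1 higher (median -0.24), where 25.5% of all genes were lower and 23.2% higher. All 5 licensing and firing factors were lower in 03, and of the helicase subunits only MCM6 was called, as higher (0.26 ± 0.10, adjusted p = 0.0413), a call lost in 9 of 12 fits without 1 library. RFC4 (chr3:186789900-186806482) measured 38.5, 38.9 and 35.2 CPM in 03 and 90.8, 66.3 and 67.0 CPM in Pop (-0.99 ± 0.11, adjusted p = 8.35e-06). RRM2 (chr2:10122568-10211010), the regulated subunit of ribonucleotide reductase, measured 197, 182 and 165 CPM and 281, 330.1 and 321 CPM (-0.78 ± 0.10, adjusted p = 3.08e-05), and SLBP (chr4:1692731-1712319) 105, 90.7 and 83.0 CPM and 177, 137 and 131 CPM (-0.67 ± 0.11, adjusted p = 2.47e-04). None of the 3 overlapped. Without replicate 1 of Pop, 10 replication genes were lower and 2 higher, and 3 mitosis genes were lower and 1 higher. Of 25 mitosis genes 4 were lower and 1 higher, counts that ranged for the lower ones from 2 without the first 03 library to 8 without the third Pop library. CDC20 measured 127, 163 and 194 CPM in 03 and 317, 291 and 269 CPM in Pop (-0.86 ± 0.12, adjusted p = 6.41e-05), AURKB was also lower (-0.75 ± 0.15, adjusted p = 0.00117), and the checkpoint kinase gene BUB1 was higher (0.53 ± 0.09, adjusted p = 2.75e-04).

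Lineage 10 had 12 of 24 replication genes lower than Pop and none higher (median -0.23), where 23.5% of all genes were lower and 18.8% higher. MCM7 measured 237, 246 and 256 CPM in 10 and 519.8, 433 and 420.5 CPM in Pop (-0.89 ± 0.09, adjusted p = 5.01e-06). POLA1 measured 54.1, 52.9 and 55.5 CPM and 104, 85.0 and 86.1 CPM (-0.76 ± 0.08, adjusted p = 8.94e-06), and TK1 104, 104 and 108 CPM and 185, 144 and 142 CPM (-0.57 ± 0.10, adjusted p = 4.95e-04). Each was lower in 10 without overlap. No member of the replication list was higher at an unadjusted p under 0.05 or by DESeq2. Without replicate 1 of Pop, 8 replication genes were lower, and 3 mitosis genes were lower and 1 higher. Of 25 mitosis genes 7 were lower, led by CDC20 (-0.60 ± 0.12, adjusted p = 0.00133) and AURKB (-0.50 ± 0.15, adjusted p = 0.0182), and BUB1 was higher (0.53 ± 0.09, adjusted p = 3.37e-04). Without the second library of lineage 10 the lower mitosis genes numbered 1, and without the first the lower replication genes numbered 7. Of 47 other mitosis genes 14 were lower in 10 and 4 higher, with KIF4A at -1.16 ± 0.14, adjusted p = 1.77e-05.

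Against Pop, 4 of 6 helicase subunits and 2 of 5 licensing and firing factors were higher in lineage 13. In all, 9 replication genes were higher and 2 lower (median 0.15), while 1 mitosis gene was higher and 5 lower (median -0.18), with 21% of all genes higher and 24.2% lower. The replication genes that were higher exceeded the background share, and the mitosis genes that were lower (5 of 25) did not. With only 13 and Pop fitted, 6 replication genes were higher and 1 lower, and 3 mitosis genes were lower. GINS2 measured 59.3, 55.9 and 58.6 CPM in 13 and 41.4, 29.6 and 29.5 CPM in Pop (0.79 ± 0.12, adjusted p = 1.10e-04). MCM6 measured 216, 205 and 213 CPM and 153, 132 and 126 CPM (0.63 ± 0.10, adjusted p = 1.86e-04), and MCM3 572, 557 and 599.5 CPM and 472, 399.7 and 387 CPM (0.46 ± 0.08, adjusted p = 5.59e-04). Of these genes the libraries did not overlap. CDC6 (-0.24 ± 0.09) and RRM1 (-0.25 ± 0.09) were called lower, both lost in most fits without 1 library (9 and 10 of 12). CCNB1 (chr5:69167150-69178245), the cyclin that starts mitosis, measured 183, 205 and 236 CPM in 13 and 421, 293 and 263 CPM in Pop (-0.65 ± 0.18, adjusted p = 0.00974), CDC20 was lower (-0.60 ± 0.12, adjusted p = 0.00116), and so was KIF20A (-0.50 ± 0.16, adjusted p = 0.0237), while BUB1 was higher (0.29 ± 0.09, adjusted p = 0.018). Without replicate 1 of Pop, 9 replication genes were higher and 0 lower, and 1 mitosis gene was higher and 2 lower. Without the third Pop library 10 mitosis genes were lower, and without the second 4 replication genes were higher. The 3 comparisons with Pop share its libraries, so their shared genes, such as CDC20 and BUB1, are not independent of each other. In lineage 13, 5 of 26 other fork genes were higher and 7 lower, and 5 of 47 other mitosis genes were higher and 15 lower.

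**Figure D4:**
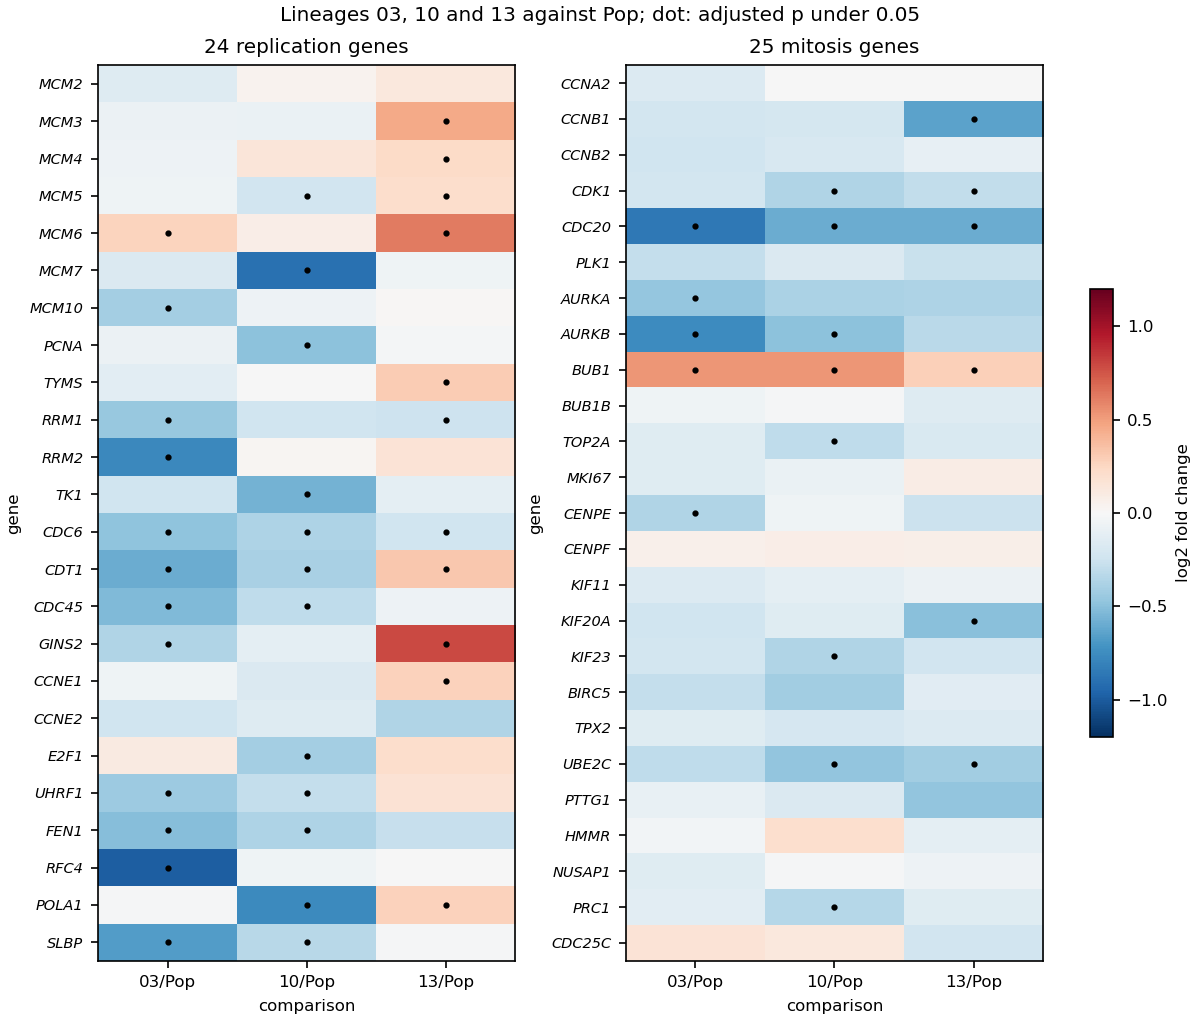
Log2 fold change of each gene in lineages 03, 10 and 13 against Pop (columns), for 24 replication genes (left) and 25 mitosis genes (right), with a dot where the adjusted p was under 0.05. Lineage 13 shows higher values in replication genes such as GINS2 (0.79) beside lower ones in mitosis genes such as CCNB1 (-0.65), and CDC20 is blue and BUB1 red in all 3 columns, which share the Pop libraries.

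Among the lineages of the second table, lineage 13 differed from 03 and 10 in more replication genes than mitosis genes. Against 13, lineage 10 had 14 replication genes lower and none higher (median -0.38), and 2 mitosis genes higher and none lower (median 0.00), with 18% of all genes lower and 16.6% higher. For both counts of 0 the count at an unadjusted p under 0.05 and that by DESeq2 were also 0. With only 10 and 13 fitted, however, 6 mitosis genes were higher and 2 lower, where 21.4% and 22.1% of all genes were, and 15 replication genes were lower and 0 higher. POLA1 had the widest difference (-1.04 ± 0.08, adjusted p = 7.33e-07), followed by GINS2 (-0.91 ± 0.12, adjusted p = 5.26e-05) and MCM7 (-0.84 ± 0.09, adjusted p = 1.04e-05), and HMMR (0.32 ± 0.10, adjusted p = 0.0258) and BUB1 (0.25 ± 0.09, adjusted p = 0.0469) were higher, calls lost in 4 and 8 of 12 fits without 1 library. Lineage 03 against 13 had 17 replication genes lower and none higher (median -0.31), with 27.1% of all genes lower and 26.1% higher. GINS2 (-1.15 ± 0.12, adjusted p = 2.85e-06), RFC4 (-0.99 ± 0.11, adjusted p = 5.81e-06) and RRM2 (-0.94 ± 0.10, adjusted p = 4.13e-06) led, and no replication gene was higher at an unadjusted p under 0.05 or by DESeq2. Only BUB1 (0.24 ± 0.09, higher), AURKB (-0.43 ± 0.15) and MKI67 (-0.23 ± 0.09) of the mitosis genes were called between 03 and 13, and these calls were lost in 5, 3 and 7 of 12 fits without 1 library. Between 03 and 10, 5 replication genes were higher and 6 lower, against 26.4% and 25% of all genes, with POLA1 (0.75 ± 0.08, adjusted p = 5.62e-06), MCM7 (0.72 ± 0.09, adjusted p = 1.72e-05) and E2F1 (0.52 ± 0.10, adjusted p = 7.92e-04) higher and RFC4 (-0.94 ± 0.11, adjusted p = 1.02e-05) and RRM2 (-0.80 ± 0.10, adjusted p = 1.83e-05) lower in 03. The lower ones ranged from 3 without the third 03 library to 10 without the first Pop library. CENPE was the single mitosis gene called with all groups fitted (-0.30 ± 0.11, adjusted p = 0.0339), and the call was lost in 3 of 12 fits without 1 library. With only 03 and 10 fitted, 10 replication genes were lower, and 1 mitosis gene was higher and 2 lower.

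The rule that chose the genes did not use their position, and position went with many of these differences. For each member the median log2 change of the 50 nearest tested genes, 25 on each side where the chromosome allowed, was set beside its own change. Over the 49 members the correlation was r = 0.79 for 22 against 35 in isolation, 0.84 for 35 against 45 and 0.70 for 22 against 45. It was 0.70, 0.76 and 0.77 for 03, 10 and 13 against Pop, and 0.66, 0.74 and 0.83 for 03 against 10, 03 against 13 and 10 against 13. Over all matched genes (13361 in the first table and 13384 in the second) the same correlation was 0.13 to 0.33 across the 18 comparisons. Genes expressed at levels like those of the members were not compared separately. The members share libraries, and some share neighbours, so r is a description without a test. In isolated 35 against 45 the 5 chromosome 15 members exceeded 45 by 0.47 to 0.85, and their neighbours by 0.33 to 0.61. TYMS on chromosome 18 (1.11) and MCM3 on chromosome 6 (0.93) had neighbours at 0.55 and 0.63. In the second table, MCM7 in 10 against Pop (-0.89) had neighbours at -0.51, RFC4 in 03 against Pop (-0.99) at -0.57, and GINS2 in 13 against Pop (0.79) at 0.37. CCNB1 and KIF20A, both on chromosome 5, were lower in 13 with neighbours at -0.32 and -0.26. Copy number was not measured in these libraries, and its part in these differences was not tested.

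In the co-culture comparisons the correlation with neighbours was r = 0.63 in lineage 22, 0.63 in 35 and 0.17 in 45. From co-culture, the lineages compared with each other gave 0.67 (22 against 35), 0.70 (22 against 45) and 0.59 (35 against 45). In lineage 22 the median of the neighbours over the replication genes was 0.06, and the median of the replication genes' own change less that of their neighbours was 0.44. For mitosis genes in lineage 22 it was 0.33, against 0.14 and 0.03 for the lists in lineage 35 and 0.17 and 0.13 in 45. Isolated 22 less isolated 35, corrected in the same way, had medians of -0.35 for replication and -0.31 for mitosis genes. In lineage 13 against Pop the replication median of 0.15 became 0.06, and the mitosis median of -0.18 became -0.17.

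**Figure D5:**
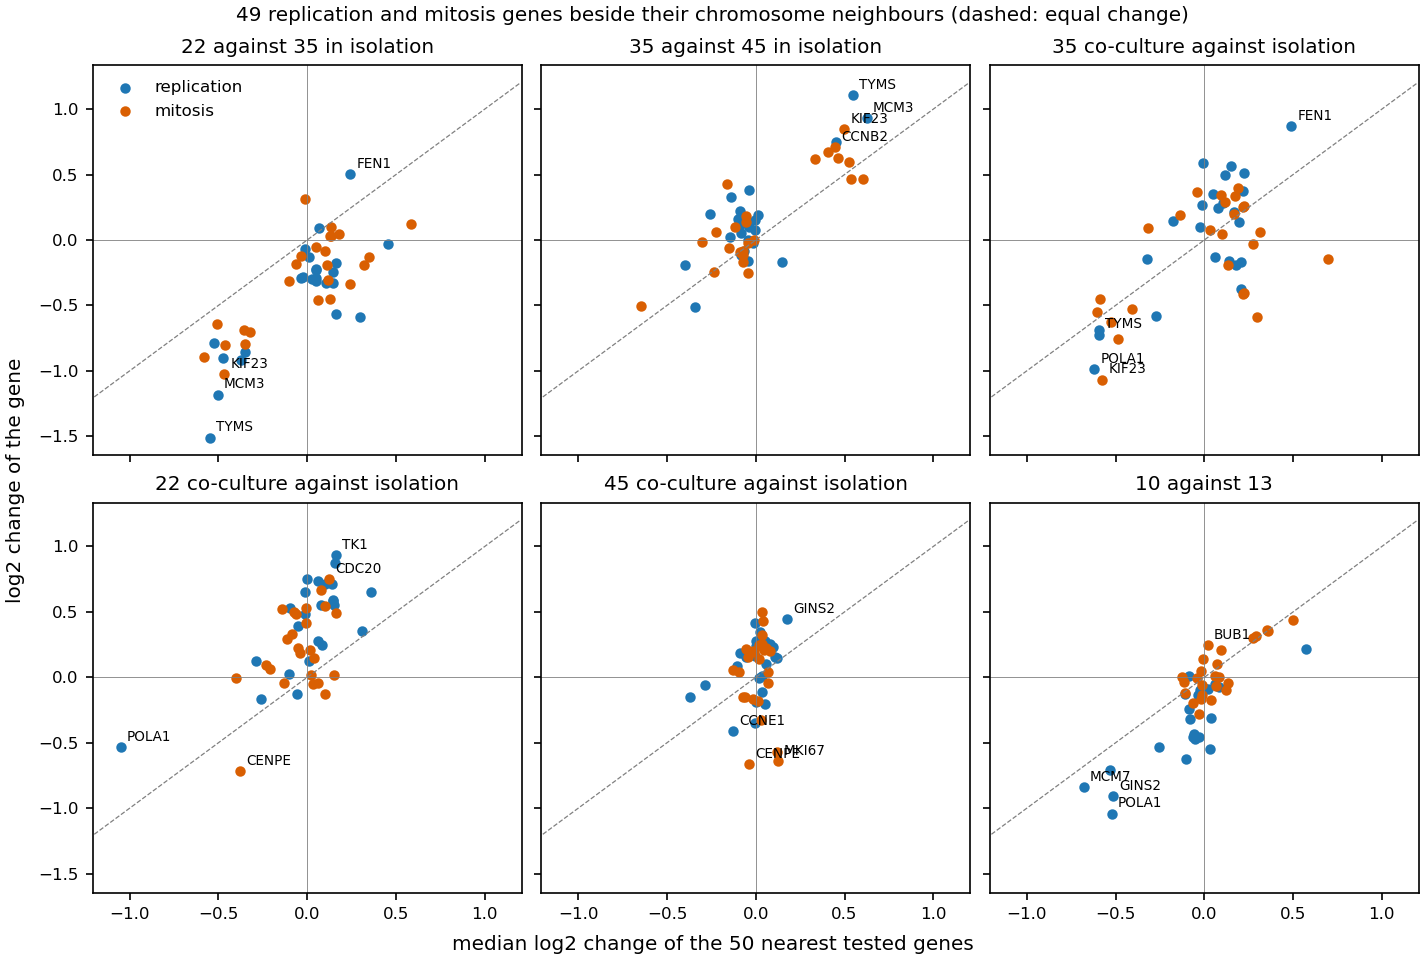
Log2 change of each of the 49 genes (vertical) against the median log2 change of its 50 nearest tested genes (horizontal) in 6 comparisons, with replication genes in blue, mitosis genes in orange and a dashed line where both are equal. In isolated 35 against 45 a cluster with TYMS, MCM3, KIF23 and CCNB2 lies to the upper right (r = 0.84), in lineage 22 co-culture against isolation most points lie above the line at neighbour values near 0, and in lineage 45 there is little relation (r = 0.17).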

How the data were processed

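Per the labels, 30 stranded mRNA libraries were sequenced, and their counts stand in 2 tables of 18 and 12 libraries. The authors deposited estimated counts for each gene, scaled by length. The submitters' processing notes name STAR 2.6.1d, Salmon 1.4.0 and GRCh38 (hg38). Which tool did the scaling, the annotation, the strand setting and any filter are not given in the sources used here. Length scaling makes the values estimates and not reads, so they were rounded to whole numbers. Every column matched a sample title, and 0 columns were left unused.

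Each table was fitted alone in R 4.3.3 with edgeR 4.0.16 (filterByExpr, TMM, quasi-likelihood F test, all groups of the table in 1 fit, limma 3.58.1). P-values were adjusted over all tested genes by the Benjamini-Hochberg method, with a threshold of 0.05. The SE of a log2 fold change is its size divided by the square root of F. CPM and list levels used TMM library sizes, with a prior count of 2 in log2 CPM. The 49 members, the other pathway lists and the rule for named genes were chosen with earlier results of these data known. The rule names, per comparison and list, the 3 called members with the largest change and up to 3 called against the direction of most. Members were grouped by role by hand. Other genes were named by smallest p, at most 3 a list. KIF4A was one of these. CDC20 in lineage 45, CCNB2 and other members outside the rule are named for the account of all members.

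Neighbours are the 50 nearest tested genes by RefSeq position (GRCh38.p14), and transcript lengths are those of the longest coding transcript in GENCODE. The scripts were tested on simulated data. Replicates differed by more than sampling noise in every pair, and none was a duplicate. Replicate numbers in the labels were checked for pairing by the correlation of deviations from group means. Of all pairs of groups only 22 and 45 from co-culture had every correlation above 0.1 (0.36, 0.25 and 0.17), and a replicate block changed no count between them. Alternatives were DESeq2 1.42.0, RLE size factors, no filter or a stricter one (5 CPM in 3 libraries), a replicate block, only the groups compared, and each library left out in turn.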

Additional observations from a re-analysis of the deposited data

Results flagged for a closer look

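The co-culture change differed between lineages by the interaction test in edgeR, and each such result is listed here with its value. Larger and smaller again refer to the signed log2 change, so a deeper fall counts as a smaller change. Between lineages 22 and 35 it differed in 14 of 24 replication genes and 12 of 25 mitosis genes, where 49.6% of all genes differed. Both shares were near the background, and without 1 library the replication count ranged from 11 to 16. Over both lists 25 members had the larger change in 22 and 1 the smaller, where 24.2% and 25.4% of all genes did. The differences in log2 change were 1.48 for TYMS, 1.22 for MCM3, 0.79 for MCM6, 1.04 for PRC1, 1.02 for KIF23, 0.90 for BUB1B and -0.41 for CDK1, where a positive value means a larger change in 22. TYMS rose in 22 and fell in 35, and so did MCM3 and PRC1. Between 22 and 45 the change differed in 13 replication genes and 2 mitosis genes, where 17.3% of all genes did, with values of 0.71 for UHRF1, 0.70 for MCM7, 0.62 for CDT1, -0.48 for POLA1, 0.42 for AURKB and 0.36 for PRC1. Between 35 and 45 it differed in 7 replication genes and 7 mitosis genes, both shares below the 42.3% of all genes. Over both lists 2 members had the larger change in 35 and 12 the smaller, where 22.8% and 19.5% of all genes did. The values were -0.97 for TYMS, -0.93 for POLA1, -0.69 for MCM3, 0.63 for FEN1, 0.32 for RRM1, -0.79 for CCNB2, -0.74 for KIF23 and -0.68 for PRC1. The 3 differences share lineages and are not independent of each other.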

How the results depend on the processing

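Of 66 counts of called members, 42 stayed within 1.5 times under each of the 6 alternatives other than leaving out a library, and 33 did so under every leave-out. None of the 333 member values called in a comparison changed direction under any alternative run, while 181 of the 549 values not called did, among them CCNA2 in 22 from co-culture with RLE size factors and with DESeq2, and the largest of those was 0.22 in size on the log2 scale. For the remaining counts the cause was not tested.

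With DESeq2, 11 replication and 11 mitosis genes rose in lineage 45 from co-culture, 2 replication genes were lower in 35 than 45 in isolation, 4 mitosis genes differed in the change of 22 against 45, and in 03 against 13 2 mitosis genes were higher and 1 lower. RLE size factors gave the same 11 and 11 in lineage 45 and the same 2 and 1 in 03 against 13, and a mean mitosis level of 0.0739 for 22 from co-culture in place of 0.0494. Without a filter on low counts, 2 mitosis genes fell in lineage 45, 1 mitosis gene was higher in 22 than 35 from co-culture, 0 replication genes were lower in 13 than Pop, 1 mitosis gene was lower in 03 than 13, and 1 was higher in 10 than 13. With the stricter filter, 2 replication genes fell in lineage 22 from co-culture, 2 replication genes and 1 mitosis gene were lower in 35 than 45 in isolation, 1 mitosis gene differed in the change of 22 against 45, and 1 was lower in 03 than 13.

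With only the groups compared in the fit, 10 mitosis genes were lower in 22 than 45 and 2 in 35 than 45 in isolation. From co-culture, 1 replication gene was higher in 22 than 35, 3 replication and 0 mitosis genes were higher in 22 than 45, and 1 replication gene was higher and 1 lower in 35 than 45. Against Pop, 0 replication genes were higher in 03, and 1 replication and 3 mitosis genes were lower in 13. In 03 against 10, 10 replication genes were lower, and 1 mitosis gene was higher and 2 lower. In 03 against 13, 1 mitosis gene was lower, and in 10 against 13, 6 were higher and 2 lower.

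With the replicate number as a replicate block, 18 replication genes rose in lineage 22 from co-culture as before, 2 replication genes and 1 mitosis gene were lower in 35 than 45 in isolation, 1 replication gene was lower in 13 than Pop, and 1 mitosis gene was higher in 10 than 13. The block moved no other count by more than 1.5 times. Except for 22 and 45 from co-culture, no pair of groups had every correlation of deviations above 0.1. That check cannot show that the replicate numbers are unpaired.

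Leaving out each library in turn gave the following lowest and highest counts. Co-culture against isolation had 0 to 1 mitosis genes lower in 22, and 2 to 8 higher and 2 to 4 lower in 45. In isolation, 0 to 2 mitosis genes were higher in 22 than 35, 5 to 10 replication and 1 to 6 mitosis genes were lower in 22 than 45, and for 35 against 45 4 to 8 replication genes were higher, 1 to 3 lower, and 0 to 1 mitosis genes lower. From co-culture, 22 against 35 had 0 to 2 replication genes higher, and 1 to 3 mitosis genes higher and 1 to 2 lower; 22 against 45 had 4 to 8 replication and 0 to 2 mitosis genes higher; 35 against 45 had 1 to 7 replication genes higher and 1 to 2 lower. The change of 22 against 45 differed in 8 to 14 replication and 0 to 4 mitosis genes. Against Pop, 03 had 0 to 2 replication genes higher and 2 to 8 mitosis genes lower, 10 had 7 to 12 replication and 1 to 9 mitosis genes lower, and 13 had 4 to 9 replication genes higher, 0 to 3 lower, 0 to 1 mitosis genes higher and 2 to 10 lower. In 03 against 10, 3 to 10 replication genes were lower, and 0 to 1 mitosis genes were higher and 0 to 3 lower. In 03 against 13, 0 to 4 mitosis genes were higher and 0 to 2 lower, and in 10 against 13, 0 to 4 were higher and 0 to 1 lower.

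Of 123 values of named members, calls were lost in 2 with DESeq2, 3 with RLE size factors, 2 with the stricter filter, 8 without a filter, 10 with only the groups compared and 4 with the replicate block, and in 140 of 1980 fits of a member without 1 library. Windows of 20 and 100 neighbours, chosen after seeing the data, gave r = 0.53 and 0.59 for lineage 22 from co-culture, 0.56 and 0.71 for 22 against 45 from co-culture, and 0.15 and 0.26 for lineage 45 from co-culture. With 3 libraries a group, members with changes near the spread between libraries pass or miss the threshold with small changes of the fit.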
